A study of Homo sapiens with 24 samples.

Results

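The genes of cellular iron handling described here are 9 genes chosen by symbol: TFRC, TFR2 and SLC11A2 (uptake), FTH1 and FTL (storage), SLC40A1 (export), ACO1 and IREB2 (sensing) and NCOA4 (release from storage). They are 9 of 22227 genes in the tables of a ligand experiment and 9 of 23028 genes in those of an siRNA experiment, and every one of them was found in both. All of them also passed the filters on low values, so that 9 of 9 entered each test.

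RNA sequencing of poly(A)-enriched RNA was carried out in LNCaP, an androgen-responsive human prostate adenocarcinoma cell line kept for 3 days in phenol red-free medium with 5 to 10% charcoal-stripped serum, which is depleted of steroids. In the ligand experiment cells received vehicle, 10 nM DHT (dihydrotestosterone, a natural androgen) or 10 μM enzalutamide (an antiandrogen drug, labelled MDV). Either ligand acted for 4 h or 24 h, with 2 libraries for each ligand and time. The labels list 4 vehicle samples, used here as 2 libraries because the 3 runs that carry replicate number 1 were summed. In the siRNA experiment cells were transfected with a control pool (siControl) or a pool against the transcription factor GATA2 (siGATA2) and 72 h later were given either vehicle or enzalutamide at 25 μM, both for 24 h, with 3 libraries per condition. The comparisons ask how an androgen or an antiandrogen changes RNA levels, and whether the change under enzalutamide depends on GATA2. All groups are 1 cell line, every siGATA2 library carries the same siRNA pool, the vehicle cells of the ligand experiment have no labelled time and serve both time points, and the dose of enzalutamide differs between the experiments.

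Iron enters most cells bound to transferrin, which the transferrin receptor carries into endosomes, and SLC11A2 (DMT1) then moves the metal into the cytosol. Ferritin, a shell built of FTH1 and FTL chains, stores the surplus, NCOA4 delivers ferritin to lysosomes when iron is needed, and SLC40A1 (ferroportin) exports it. When cytosolic iron is low, the iron regulatory proteins encoded by ACO1 and IREB2 bind hairpins called iron-responsive elements. Binding in a 5′ UTR blocks translation, as for ferritin, and binding in the 3′ UTR of TFRC protects that mRNA, so ferritin protein cannot be read from ferritin mRNA alone.

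The hairpins that a strict search found in the members are printed because they are the elements through which iron acts on these mRNAs. The search misses elements with an imperfect stem, such as the one known in the 3′ UTR of an SLC11A2 isoform, so it does not separate members that respond to iron from those that do not. The annotated UTRs (GENCODE release 29, build GRCh38) were searched on the transcript strand for CNNNNNCAGTGN, an unpaired C, a stem, and a loop of 6 bases, followed by bases that pair with all 5 stem bases (G with U pairs allowed). Capitals mark the unpaired C and the loop, and the base number given for TFRC is that of the unpaired C in the 3′ UTR of TFRC-201.
FTH1 5′ UTR: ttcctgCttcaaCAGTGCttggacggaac
FTL 5′ UTR: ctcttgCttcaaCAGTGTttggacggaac
SLC40A1 5′ UTR: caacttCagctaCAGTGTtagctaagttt
TFRC 3′ UTR, base 941: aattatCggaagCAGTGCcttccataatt
TFRC 3′ UTR, base 1345: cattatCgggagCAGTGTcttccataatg
TFRC 3′ UTR, base 1410: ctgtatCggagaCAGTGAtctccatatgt
TFRC 3′ UTR, base 1457: aattatCgggaaCAGTGTttcccataatt
In FTH1 (chromosome 11, minus strand, gene from 61959718 to 61967660) the hairpin lies in exon 1 at chr11:61967574-61967602, with the unpaired C at base 65 of the 5′ UTR of transcript FTH1-201. In FTL (chromosome 19, plus strand, 48965301 to 48966878) it lies in exon 1 at chr19:48965335-48965363, with the C at base 41. In SLC40A1 (chromosome 2, minus strand, 189560579 to 189583758) it lies in exon 1 at chr2:189580661-189580689, with the C at base 205. The 4 hairpins of TFRC (chromosome 3, minus strand, 196027183 to 196082189) all lie in exon 19 of TFRC-201, at chr3:196050979-196051007, chr3:196050575-196050603, chr3:196050510-196050538 and chr3:196050463-196050491. Of all genes with an annotated 5′ UTR, 36 of 19061 (0.189%) held a match, and of those with a 3′ UTR, 132 of 19164 (0.689%). The search found no match in TFR2, SLC11A2, ACO1, IREB2 or NCOA4, which says only that these letters with a full stem are not in their annotated UTRs.

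The other members lie on chromosome 7 (TFR2, minus strand, 100620416 to 100642779), 12 (SLC11A2, minus strand, 50979401 to 51028566), 9 (ACO1, plus strand, 32384603 to 32454769), 15 (IREB2, plus strand, 78437431 to 78501456) and 10 (NCOA4, minus strand, 46005088 to 46030714), all in GRCh38.

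The ligand libraries held 38894876 to 59985287 estimated counts each, and values below are CPM, counts scaled to a common library size with TMM factors. The siRNA tables hold RPKM, reads per kilobase of gene, scaled to sequencing depth. The 3 runs that carry vehicle replicate number 1 differed less from each other than from replicate 2. They were counted as 1 sample, a choice that this difference does not settle. The 2 libraries of enzalutamide at 4 h stood further apart than other replicates, with a mean chi-square per gene of 9.83 against 2.03 to 4.57 for replicate pairs of the other ligand groups. In the siRNA experiment the targeted gene was lower in every siGATA2 library (46.6 to 64.7 RPKM) than in every siControl library (77.0 to 132 RPKM), with log2 differences of -0.68 with vehicle and -1.06 under enzalutamide (limma adjusted p = 3.12e-06 and 1.07e-07). GATA2 itself rose 1.57-fold with enzalutamide in siControl cells (adjusted p = 1.17e-05), and its response differed between siGATA2 and siControl cells by -0.38 (adjusted p = 0.00823), so the size of the knockdown differs between the treatments. In the ligand experiment, at 10 μM, GATA2 was instead lower than with vehicle. The log2 change was -0.391 at 4 h and -0.185 at 24 h of enzalutamide (edgeR adjusted p = 0.000198 and 0.00892). Under DHT it was -0.312 at 4 h and -0.331 at 24 h (edgeR adjusted p = 0.000852 and 7.03e-05). The luminal prostate markers KLK2, KLK3, FOLH1, KRT8 and KRT18 summed to 2723 to 4392 CPM and to 552 to 1226 RPKM, whereas the basal markers summed to at most 0.484 CPM and 0.113 RPKM and the erythroid markers to at most 0.0394 CPM and 0.409 RPKM. In bulk RNA, fewer cells of a type and less RNA per cell cannot be told apart.

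After 24 h the transferrin receptor and ferritin moved in opposite directions, and the direction differed between the ligands. Enzalutamide lowered TFRC and raised FTH1, FTL, SLC40A1 and ACO1. DHT raised TFRC and SLC11A2 and lowered FTH1, FTL and SLC40A1. Enzalutamide changed 5 of 9 members (4 up, 1 down), where 33.4% of all 15555 tested genes were called at an adjusted p below 0.05 in edgeR, and DHT changed 5 of 9 (2 up, 3 down), where 50.0% of all genes were called. The median log2 fold change of the members was 0.09 under enzalutamide and -0.02 under DHT, against 0.01 and 0.00 over all genes. Under DHT the share of members called was near the background, so that count is no result about the members, which are read gene by gene. Both contrasts share the vehicle libraries. With library size alone in place of TMM scaling, the 4182 rises and 3601 falls of DHT at 24 h over all genes became 3314 and 4555, and the called members kept their direction.

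TFRC, the main receptor for transferrin-bound iron, stood at 546 and 505 CPM in vehicle cells. It was at 350.4 and 351 CPM after 24 h of enzalutamide and at 796 and 752 CPM after 24 h of DHT. Both enzalutamide libraries were below, and both DHT libraries above, every vehicle library. How many of all genes separate in this way was not counted, so statements on overlap, here and below, only describe the levels. TFRC fell by 0.58 ± 0.05 on the log2 scale (SE, n = 2 per group, edgeR adjusted p = 6.25e-07), a ratio of 0.667, under enzalutamide, and rose by 0.56 ± 0.05 (adjusted p = 4.64e-07), a ratio of 1.47, under DHT. Compared directly at 24 h, TFRC was 2.21-fold higher under DHT than under enzalutamide (adjusted p = 1.61e-10). The column names of the tables carry a set name (ZC1, ZC2 or ZC3), and what a set stands for is not given in the sources used here. Within the same set as a vehicle run the log2 ratio was -0.64 for enzalutamide and 0.53 and 0.45 for DHT.

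The ferritin chains moved the other way. FTH1, the heavy chain that oxidises iron, was at 1604 and 1718 CPM in vehicle cells, 2424 and 2405 CPM after 24 h of enzalutamide and 1349 and 1407 CPM after 24 h of DHT. FTL, the light chain, was at 215 and 227 CPM in vehicle cells, 277 and 273 CPM under enzalutamide and 178 and 184 CPM under DHT. For both chains the groups did not overlap, with enzalutamide highest and DHT lowest. FTH1 rose by 0.54 ± 0.04 on the log2 scale under enzalutamide (adjusted p = 7.87e-08) and fell by 0.27 ± 0.04 under DHT (adjusted p = 3.06e-05). FTL rose by 0.31 ± 0.04 (adjusted p = 6.29e-05) and fell by 0.29 ± 0.04 (adjusted p = 6.23e-05). Within sets the log2 ratios were 0.59 for FTH1 and 0.34 for FTL under enzalutamide. Under DHT they were -0.25 and -0.19 for FTH1 and -0.27 and -0.23 for FTL.

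SLC40A1, the only known exporter of iron, was measured at a low level but followed ferritin. It stood at 5.45 and 5.20 CPM in vehicle cells, 7.41 and 8.13 CPM after 24 h of enzalutamide and 3.37 and 3.24 CPM after 24 h of DHT. The groups did not overlap. The log2 change was 0.54 ± 0.10 under enzalutamide (adjusted p = 0.0011) and -0.69 ± 0.11 under DHT (adjusted p = 0.000191). Each of these values rested on 127 to 403 estimated counts per library. Within sets the log2 ratio was 0.46 under enzalutamide and -0.71 and -0.80 under DHT.

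Marker lists moved with the ligands as well. The luminal list summed to 2823 to 2878 CPM in vehicle cells, 2840.3 to 2846 CPM after 24 h of enzalutamide and 4337 to 4392 CPM after 24 h of DHT. The endothelial list (PECAM1, VWF, CDH5) summed to 15.6 to 16.4, 8.47 to 9.05 and 20.7 to 21.4 CPM, and the fibroblast list (COL1A1, COL3A1, DCN) to 24.4 to 25.2, 26.4 to 29.1 and 14.8 to 16.8 CPM in the same groups. In each of the latter lists 2 of 3 markers were below 1 CPM in every library, with VWF and COL1A1 carrying the sums. The leukocyte list (PTPRC, CD3E, CD68) summed to 1.47 to 1.49, 1.42 to 1.61 and 2.80 to 2.87 CPM, and the measured hepatocyte markers ALB and TTR to 1.93 to 2.28, 1.29 to 1.42 and 1.21 to 1.27 CPM. Their part in the changes of the iron genes was not tested.

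**Figure D1:**
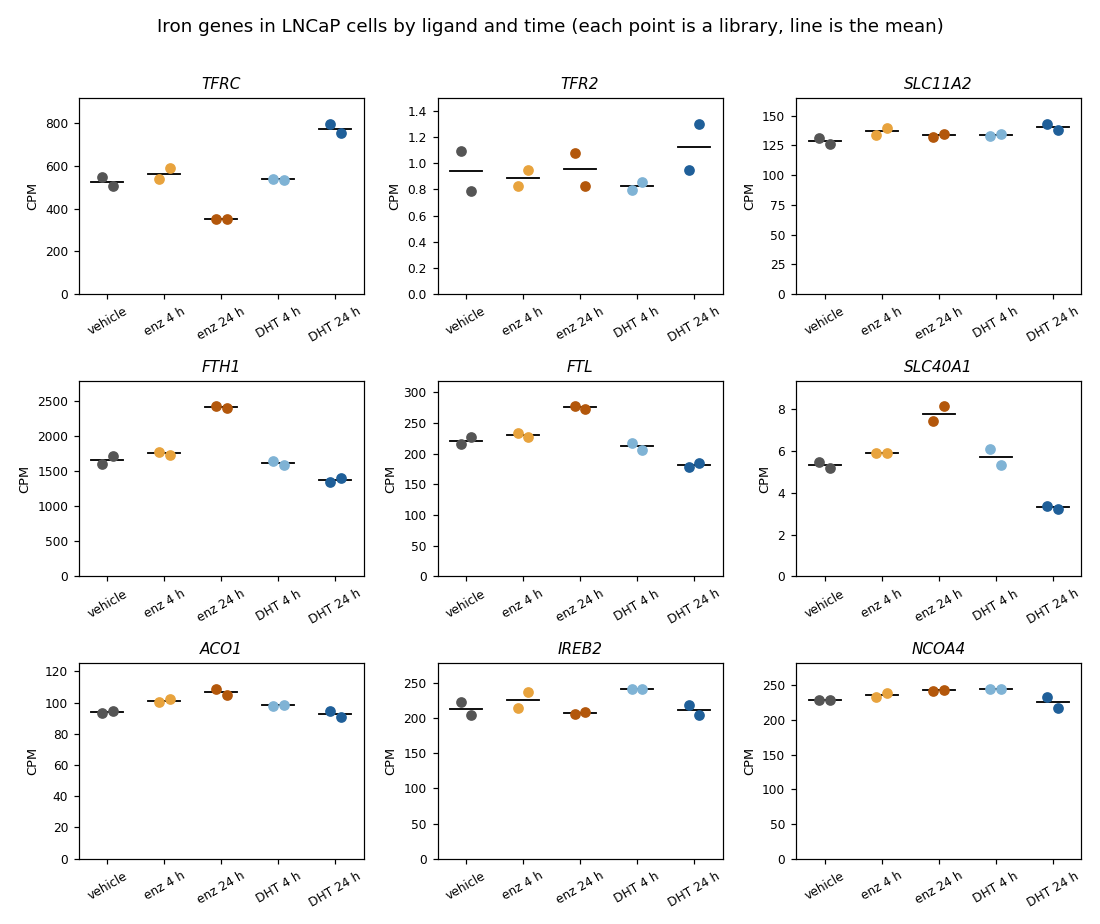
Levels of the 9 iron genes in the ligand experiment in CPM (vertical axes, linear, from 0), with 1 point per library and a line at the mean of 2 libraries. TFRC is lowest and FTH1, FTL and SLC40A1 are highest after 24 h of enzalutamide (enz), and the order is turned after 24 h of DHT.

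The remaining members changed little. ACO1, the cytosolic aconitase that doubles as iron regulatory protein, was at 93.4 and 94.8 CPM in vehicle cells and 109 and 105 CPM after 24 h of enzalutamide, a rise of 0.19 ± 0.04 (adjusted p = 0.00209). Without enzalutamide 24 h replicate 1 this call was lost (adjusted p = 0.0505). SLC11A2, the endosomal iron transporter, was at 131 and 126 CPM in vehicle cells and 143 and 138 CPM after 24 h of DHT, a rise of 0.13 ± 0.04 (adjusted p = 0.0112). That call was lost with library size alone (edgeR adjusted p = 0.104) and with the set as a term (0.189). It was also lost without DHT 24 h replicate 1 (log2 change 0.108) and without vehicle replicate 2 (0.107). Within sets the log2 ratio was 0.11 and 0.03.

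IREB2, the other iron regulatory protein, and NCOA4, the ferritin receptor of autophagy, did not pass the test against vehicle at 24 h. IREB2 ranged from 204 to 223 CPM in vehicle, 206 to 208 CPM under enzalutamide and 205 to 218 CPM under DHT, and these ranges overlapped. NCOA4 was at 228 CPM in both vehicle libraries, 242 and 243 CPM under enzalutamide (log2 change 0.09 ± 0.04, adjusted p = 0.0953) and 233 and 217 CPM under DHT. TFR2, a transferrin receptor known mainly from liver and erythroid cells, stayed between 0.787 and 1.3 CPM in all 10 libraries, with 31 to 66 estimated counts each. At that depth its SE was 0.24 on the log2 scale at 24 h, so differences larger than that could also not be told from 0. Between 4 h and 24 h of DHT, a TFR2 difference of 0.43 ± 0.24 was not called (edgeR adjusted p = 0.162).

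**Figure D2:**
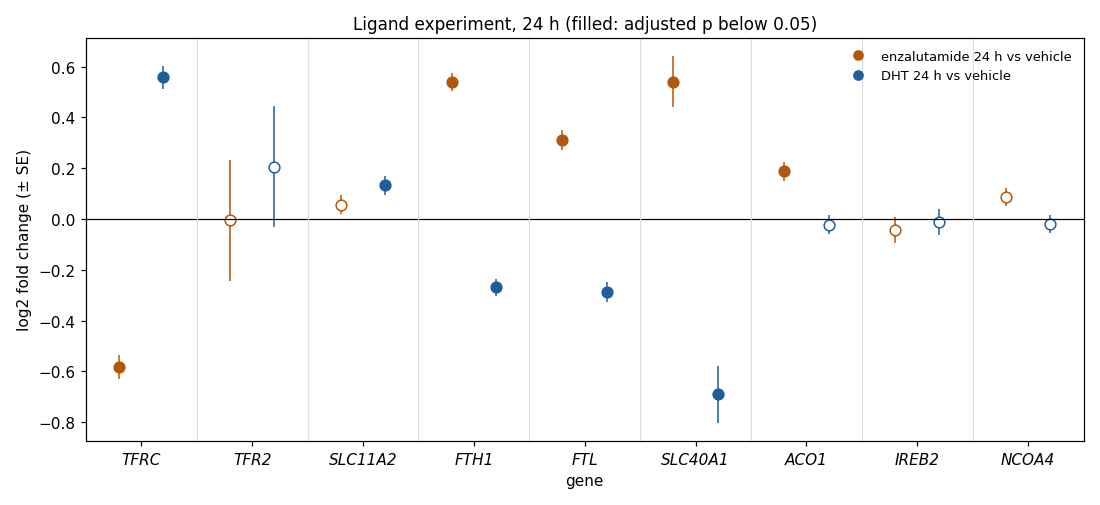
Log2 fold change against vehicle at 24 h (vertical axis) of each gene (horizontal axis) for enzalutamide and DHT, with bars of 1 SE and filled points for an adjusted p below 0.05. TFRC, FTH1, FTL and SLC40A1 lie on opposite sides of 0 for the ligands, at -0.58 and 0.56 for TFRC and 0.54 and -0.27 for FTH1.

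At 4 h no member passed the test in edgeR, under either ligand. Under enzalutamide 0 of 9 were called, where 13.6% of all genes were, with 4 members at an unadjusted p below 0.05 and 0 called by DESeq2. Under DHT 0 of 9 were called, where 6.77% of all genes were, with 2 members at an unadjusted p below 0.05 and 1 called by DESeq2. That member was IREB2, at 242 and 241 CPM against 223 and 204 CPM in vehicle cells (edgeR adjusted p = 0.0547, DESeq2 adjusted p = 0.0147). TFRC was at 539 and 589.6 CPM after 4 h of enzalutamide and at 539 and 536 CPM after 4 h of DHT, and FTH1 was at 1777 and 1728 CPM and at 1651 and 1591 CPM. For enzalutamide, TFRC (log2 change 0.166) and IREB2 (0.147) passed without enzalutamide 4 h replicate 1. FTH1 passed with the vehicle columns as separate samples (edgeR adjusted p = 0.0298) or the set as a term (0.0356). For DHT, IREB2 also passed without the filter (0.000334), with separate vehicle columns (0.0274), with the set term (0.0451) and without vehicle replicate 1 (0.0328), and NCOA4 passed with separate vehicle columns (0.0399).

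The time points themselves were then compared. Both enzalutamide 4 h libraries were in set ZC2 and both 24 h libraries in ZC3. The DHT 4 h libraries were in ZC1, and those at 24 h in ZC2 and ZC3. A plain contrast of times, or of ligands at 4 h, therefore mixes these with the set. With the set as a term the calls over all genes went from 3829 to 1628 for enzalutamide and from 7746 to 5345 for DHT. Between 4 h and 24 h of enzalutamide 4 of 9 members changed, where 24.6% of all genes did, with TFRC lower (log2 change -0.69 ± 0.05) and FTH1 (0.46 ± 0.04), FTL (0.25 ± 0.04) and SLC40A1 (0.40 ± 0.10) higher. The SLC40A1 difference was not called with DESeq2 (adjusted p = 0.0508) or with the set as a term (edgeR adjusted p = 0.13). Without enzalutamide 24 h replicate 2 it was 0.327 and was not called either. Between 4 h and 24 h of DHT 6 of 9 members changed, where 49.8% of all genes did, with TFRC higher (0.53 ± 0.05) and SLC40A1 (-0.79 ± 0.11), FTH1 (-0.24 ± 0.04), FTL (-0.23 ± 0.04), IREB2 (-0.19 ± 0.05) and NCOA4 (-0.12 ± 0.04) lower. The IREB2 call was lost without DHT 24 h replicate 2 (adjusted p = 0.0631). The NCOA4 call was lost with the set as a term (edgeR adjusted p = 0.114). It was also lost without DHT 24 h replicate 2 (log2 difference -0.078) and without DHT 4 h replicate 1 (-0.124) or replicate 2 (-0.126).

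Set directly against each other, the ligands differed in 1 of 9 members at 4 h, where 15.8% of all genes differed, and in 6 of 9 at 24 h, where 64.9% did. Both shares were near the background, so these counts are no result about the members. The difference at 4 h was in FTH1, lower under DHT (log2 difference -0.11 ± 0.04, adjusted p = 0.0467), and it was lost under 7 of 12 alternatives, with adjusted p up to 0.386. These included leaving out DHT 4 h replicate 1 (0.113) or replicate 2 (0.386) or enzalutamide 4 h replicate 1 (0.142). At 24 h TFRC was higher under DHT (1.14 ± 0.05), and FTH1 (-0.81 ± 0.04), FTL (-0.60 ± 0.04), SLC40A1 (-1.23 ± 0.11), ACO1 (-0.21 ± 0.04) and NCOA4 (-0.11 ± 0.04) were lower. The NCOA4 difference was lost with DESeq2 (adjusted p = 0.0949), with RLE factors (0.0753), without DHT 24 h replicate 2 (0.344) and without enzalutamide 24 h replicate 1 (0.126) or replicate 2 (0.143).

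In siControl cells treated with 25 μM enzalutamide, ferritin again rose and the transferrin receptor fell. FTH1 reached 2.85-fold and FTL 1.49-fold the vehicle level, SLC11A2 and ACO1 rose slightly, and TFRC and IREB2 fell. In all, 6 of 9 members were called (4 up, 2 down), where 42.1% of all 20369 tested genes were called by limma, and the median log2 fold change was 0.17 for the members and -0.02 for all genes. With the filter at a mean of at least 1 RPKM, which every member passed, 7494 of 11999 genes were called. The called share thus rose with level, and the count of members is no result about them. In the same comparison the luminal sum was 1162 to 1226 RPKM with vehicle and 609 to 664 RPKM with enzalutamide, and the endothelial sum was 0.954 to 0.994 RPKM and 0.371 to 0.499 RPKM. Their part in the changes of the iron genes was not tested.

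FTH1 was at 555, 584 and 571 RPKM in siControl cells with vehicle and at 1513, 1591 and 1785 RPKM with enzalutamide, a rise of 1.51 ± 0.07 on the log2 scale (SE, n = 3 per group, limma adjusted p = 1.1e-07). FTL was at 214, 209 and 226 RPKM with vehicle and at 314, 328 and 323 RPKM with enzalutamide, a rise of 0.57 ± 0.05 (adjusted p = 4.3e-06). TFRC was at 102, 106 and 98.1 RPKM with vehicle and at 76.5, 72.5 and 78.0 RPKM with enzalutamide, and fell by 0.43 ± 0.06 (adjusted p = 0.000243). For these 3 genes the groups did not overlap. The ratio of FTH1 to FTL, in RPKM, was 2.53 to 2.80 in the vehicle libraries and 4.82 to 5.53 in the enzalutamide libraries, with means of 2.64 ± 0.14 (SD) and 5.07 ± 0.40. The ratio was higher in every enzalutamide library. In the ligand experiment, at 10 μM, the ratio of the CPM values was 7.5 ± 0.07 with vehicle and 8.80 ± 0.04 after 24 h of enzalutamide. The doses and units differ, so the experiments are given side by side only.

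SLC11A2 was at 16.0, 16.5 and 15.4 RPKM with vehicle and at 18.6, 18.5 and 19.1 RPKM with enzalutamide (log2 change 0.23 ± 0.03, adjusted p = 4.81e-05). ACO1 was at 25, 24.0 and 24.8 RPKM and at 28.6, 26.9 and 27.2 RPKM (0.17 ± 0.03, adjusted p = 0.000479). Neither gene overlapped between the groups. IREB2 was at 23.1, 24.4 and 22.6 RPKM and at 22.1, 21.1 and 22.5 RPKM (-0.09 ± 0.03, adjusted p = 0.045), and this call was lost with median scaling (0.265), with the replicate block (0.0761) and without siControl vehicle replicate 1 (0.0717) or replicate 2 (0.152) or siControl enzalutamide replicate 1 (0.0703) or replicate 2 (0.162). SLC40A1, at 2.45, 2.71 and 2.49 RPKM and at 3.06, 2.88 and 2.85 RPKM, did not pass (0.19 ± 0.08, adjusted p = 0.0662), although its groups did not overlap, and it passed with median scaling (0.0319), with the replicate block (0.0429) and with the filter at a mean of at least 1 RPKM (0.0352). NCOA4 (56.5 to 59.3 RPKM with vehicle, 57.2 to 59.6 RPKM with enzalutamide) and TFR2 (1.52 to 2.05 and 1.65 to 1.88 RPKM) overlapped.

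In siGATA2 cells no member passed the test for the same treatment. In limma, the one tool run on RPKM, the test called 0 of 9, where 0.412% of all genes (84 genes) were called, with 2 members (ACO1 and SLC11A2) at an unadjusted p below 0.05. FTH1 was at 902, 942 and 826 RPKM with vehicle and at 919.9, 924 and 904 RPKM with enzalutamide (log2 change 0.04 ± 0.07). FTL was at 135, 139 and 126 RPKM and at 129.8, 139 and 131 RPKM (0.00 ± 0.05), and TFRC at 122, 123 and 142 RPKM and at 130, 121 and 133 RPKM (-0.01 ± 0.06). All 3 ranges overlapped between vehicle and enzalutamide.

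The difference between the responses of siControl and siGATA2 cells was tested as an interaction, and 5 of 9 members were called, where 25.8% of all genes were. With the filter at a mean of at least 1 RPKM, 5215 of 11999 genes were called, so the members are read gene by gene. The response of FTH1 was lower in siGATA2 cells by 1.47 ± 0.10 on the log2 scale, written as a difference of -1.47 (adjusted p = 6.24e-06), and that of FTL by 0.57 ± 0.06, a difference of -0.57 (adjusted p = 0.000145). For TFRC the difference was 0.42 ± 0.09 (adjusted p = 0.00526), and for SLC11A2 it was -0.15 ± 0.04 (adjusted p = 0.0134). These 4 differences passed in each of 18 alternatives. For IREB2 the difference was 0.16 ± 0.05 (adjusted p = 0.0326) and was lost in 9 of 18 alternatives. Among these were the fits without siControl vehicle replicate 1 (0.0507) or 2 (0.058), siControl enzalutamide replicate 2 (0.0722), siGATA2 vehicle replicate 1 (0.064) or 2 (0.0773) and siGATA2 enzalutamide replicate 1 (0.0764) or 3 (0.0668). ACO1, SLC40A1, TFR2 and NCOA4 were not called.

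**Figure D3:**
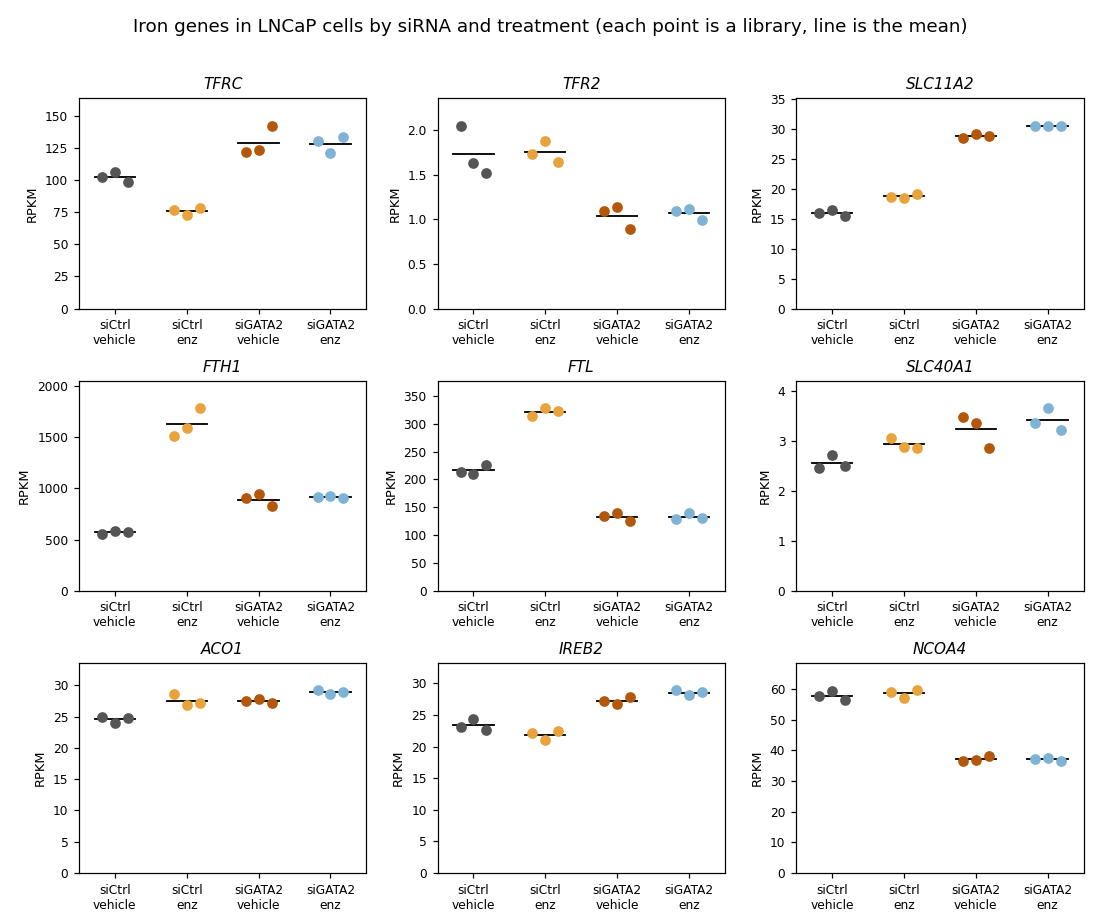
Levels of the 9 iron genes in the siRNA experiment in RPKM (vertical axes, linear, from 0), with 1 point per library and a line at the mean of 3 libraries. FTH1 and FTL are highest, and TFRC lowest, in siControl cells with enzalutamide (enz), while the siGATA2 groups with and without enzalutamide overlap for these 3 genes.

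GATA2 silencing itself moved every member in vehicle-treated cells, 6 up and 3 down, where 55.6% of all genes were called. With the filter at a mean of at least 1 RPKM, 9119 of 11999 genes were called. The median log2 difference was 0.22 for the members and -0.03 for all genes. The ferritin chains parted. FTH1 rose from 555, 584 and 571 RPKM to 902, 942 and 826 RPKM (0.64 ± 0.07, adjusted p = 1.76e-05), and FTL fell from 214, 209 and 226 RPKM to 135, 139 and 126 RPKM (-0.70 ± 0.05, adjusted p = 2.96e-07). The groups did not overlap for either chain, and the ratio of FTH1 to FTL went from 2.64 ± 0.14 (SD) to 6.67 ± 0.13.

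NCOA4, SLC11A2 and TFRC did not overlap between the groups either. NCOA4 fell from 57.7, 59.3 and 56.5 RPKM to 36.5, 36.9 and 38.1 RPKM (-0.64 ± 0.03, adjusted p = 1.11e-08). SLC11A2 rose from 16.0, 16.5 and 15.4 RPKM to 28.4, 29.1 and 28.8 RPKM (0.84 ± 0.03, adjusted p = 1.4e-09), which was the lowest adjusted p among the members. TFRC rose from 102, 106 and 98.1 RPKM to 122, 123 and 142 RPKM (0.34 ± 0.06, adjusted p = 0.000728), with siGATA2 vehicle replicate 3 the highest library.

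The sensors, the exporter and TFR2 followed in level. IREB2 rose from between 22.6 and 24.4 RPKM to between 26.7 and 27.9 RPKM (0.22 ± 0.03, adjusted p = 0.000164) and ACO1 from between 24.0 and 25 RPKM to between 27.2 and 27.9 RPKM (0.16 ± 0.03, adjusted p = 0.00031). SLC40A1 rose from 2.45, 2.71 and 2.49 RPKM to 3.47, 3.35 and 2.86 RPKM (0.32 ± 0.08, adjusted p = 0.00402). TFR2 fell from 2.05, 1.63 and 1.52 RPKM to 1.09, 1.14 and 0.889 RPKM (-0.68 ± 0.12, adjusted p = 0.000516), and with 1 RPKM added before the log in place of 0.1 this difference was -0.42. None of these groups overlapped, which describes the levels only, since the share of all genes without overlap was not counted.

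Under enzalutamide the siGATA2 and siControl cells also differed in 9 of 9 members (5 up, 4 down), where 54.5% of all genes were called. With the filter at a mean of at least 1 RPKM, 9048 of 11999 genes were called. FTH1 turned direction. It was lower in siGATA2 cells (919.9, 924 and 904 RPKM) than in siControl cells (1513, 1591 and 1785 RPKM), a log2 difference of -0.83 ± 0.07 (adjusted p = 2.51e-06). FTL was lower by 1.27 ± 0.05, a difference of -1.27 (adjusted p = 4.13e-09), NCOA4 differed by -0.66 ± 0.03 (adjusted p = 9.18e-09) and TFR2 by -0.66 ± 0.12 (adjusted p = 0.000639), or -0.41 with 1 RPKM added. TFRC was higher by 0.76 ± 0.06 (adjusted p = 1.6e-06), SLC11A2 by 0.70 ± 0.03 (adjusted p = 4.89e-09) and IREB2 by 0.38 ± 0.03 (adjusted p = 2.97e-06).

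The calls of SLC40A1 and ACO1 under enzalutamide were lost when single libraries were left out. SLC40A1 (0.21 ± 0.08, adjusted p = 0.0369) was lost without siGATA2 enzalutamide replicate 1 (0.067) or replicate 2 (0.133) and without siControl enzalutamide replicate 2 (0.093) or replicate 3 (0.1). ACO1 (0.07 ± 0.03, adjusted p = 0.0427) was lost without siGATA2 enzalutamide replicate 1 (0.117), 2 (0.0599) or 3 (0.095), without siControl enzalutamide replicate 2 (0.153) or 3 (0.119), and with the filter at a mean of at least 1 RPKM (0.0631). For this comparison same-numbered libraries deviated together, and the replicate number as a block changed no member's call.

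Marker lists moved with GATA2 silencing as well. The leukocyte list (PTPRC, CD3E, CD68) summed to 3.54 to 5.32 RPKM in siControl libraries and to 10.5 to 12.2 RPKM in siGATA2 libraries, carried by CD68, a lysosomal protein gene, while the other 2 markers were below 1 RPKM in every library. The luminal list summed to 1162 to 1226 RPKM in siControl cells with vehicle and to 552 to 664 RPKM in the other groups. Their part in the changes of the iron genes was not tested.

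**Figure D4:**
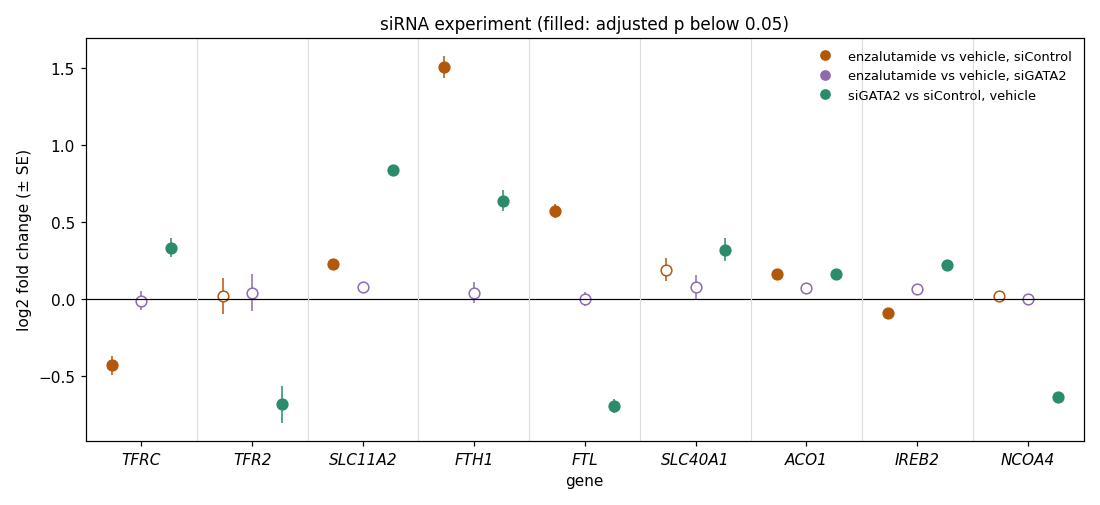
Log2 fold change (vertical axis) of each gene (horizontal axis) for enzalutamide in siControl cells, enzalutamide in siGATA2 cells and siGATA2 against siControl with vehicle, with bars of 1 SE and filled points for an adjusted p below 0.05. All 9 points for enzalutamide in siGATA2 cells are open and between -0.01 and 0.08, against 1.51 for FTH1 in siControl cells.

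The members spanned a wide range of levels. Per length, in siControl cells with vehicle, FTH1 (569.7 RPKM on average, 99.9% of tested genes below its mean over all libraries), FTL (216 RPKM), TFRC (102 RPKM) and NCOA4 (57.8 RPKM) came first, followed by ACO1 (24.6 RPKM), IREB2 (23.4 RPKM) and SLC11A2 (16.0 RPKM), and by SLC40A1 (2.55 RPKM) and TFR2 (1.73 RPKM). In that order only the neighbours ACO1 and IREB2 overlapped. In siGATA2 cells with vehicle the order changed. FTL (126 to 139 RPKM) and TFRC (122 to 142 RPKM) overlapped, and SLC11A2, at 28.4 to 29.1 RPKM, stood above ACO1 (27.2 to 27.9 RPKM) and IREB2 (26.7 to 27.9 RPKM), which overlapped.

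Ferritin reads may be shared with copies elsewhere in the genome. GENCODE names 25 pseudogenes of FTH1 and 16 of FTL, of which the ligand experiment lists 1 each and the siRNA experiment 1 and 0, so reads from the others may have been counted under FTH1 or FTL or left out. The listed FTH1P3 held 4.87 to 5.61% of the FTH1 level in the ligand tables and 0.131 to 0.217% in the siRNA tables. In the ligand experiment it was at 90.0 and 91.9 CPM in vehicle cells, 124 and 131 CPM after 24 h of enzalutamide and 65.6 and 68.5 CPM after 24 h of DHT. FTH1 also shares 1267 of its 2030 annotated exonic bases with BEST1 on the opposite strand, and whether the counting used strand is not given in the sources used here. BEST1 was at 7.68 and 6.47 CPM with vehicle, 15.8 and 14.4 CPM after 24 h of enzalutamide and 2.95 and 2.78 CPM after 24 h of DHT. FTH1 was at 1349 to 2424 CPM in the same groups. These levels do not show how many reads of the shared bases went to either gene, which was not tested. No other member shares exonic bases with another annotated gene.

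A wider list of 64 iron genes was described beside the members. In the ligand experiment 55 of them were tested. After 24 h of enzalutamide 12 rose and 11 fell, where 33.4% of all genes were called, and after 24 h of DHT 23 rose and 10 fell, where 50.0% were called. These counts are descriptions of the list, with no test of it, and the balance of rises and falls under DHT depends on the scaling, as given above for all genes. HMOX1, the heme oxygenase that frees iron from heme, rose from 5.83 ± 0.19 to 11.3 ± 0.66 CPM (SD, n = 2) under enzalutamide (log2 change 0.96 ± 0.10, adjusted p = 5.46e-06), as did FLVCR2, a heme transporter gene (0.52 ± 0.10, adjusted p = 0.00104). SLC39A8, a divalent metal importer, fell by 0.52 ± 0.06 (adjusted p = 1.1e-05), and BMP6, a ligand that signals iron load to the liver, fell by 0.76 ± 0.15, a change of -0.76 (adjusted p = 0.00174).

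Under DHT at 24 h, of 18 genes of mitochondrial iron and iron-sulfur cluster assembly, 9 rose and 4 fell, and of 17 heme genes 7 rose and 1 fell, beside 50.0% of all genes called. BMP6 rose by 1.40 ± 0.13 (adjusted p = 8.93e-07) and SLC25A37, the mitochondrial iron importer mitoferrin 1, rose by 0.53 ± 0.04 (adjusted p = 4.25e-07). HFE, a partner of the transferrin receptors, fell by 0.63 ± 0.09 (adjusted p = 4.72e-05) and STEAP2, a metalloreductase, by 0.41 ± 0.06 (adjusted p = 6.14e-05). At 4 h, 4 of the 55 rose and 4 fell under enzalutamide (13.6% of all genes called), and 5 rose and 1 fell under DHT (6.77% called). STEAP3, the endosomal reductase that prepares iron for SLC11A2, was lower at 4 h under both enzalutamide (-0.37 ± 0.07, adjusted p = 0.00496) and DHT (-0.29 ± 0.07, adjusted p = 0.0224). At 24 h the ligands parted, with STEAP3 at 11.7 ± 0.16 CPM (SD, n = 2) under enzalutamide and 21.2 ± 0.01 CPM under DHT. In vehicle cells it was at 15.5 ± 0.13 CPM. SLC25A37 fell by 0.19 ± 0.04 at 4 h of enzalutamide (adjusted p = 0.0128) and rose by 0.31 ± 0.04 at 4 h of DHT (adjusted p = 0.000508), and BMP6 rose by 0.68 ± 0.13 at 4 h of DHT (adjusted p = 0.00471). FLVCR2 (0.35 ± 0.10, adjusted p = 0.0312) and HERC2, a ubiquitin ligase gene (0.33 ± 0.09, adjusted p = 0.0269), were called higher at 4 h of enzalutamide. HERC2 stood at 98.9 ± 18 CPM (SD, n = 2) there, against 78.7 ± 1.94 CPM in vehicle cells, so the call rests on the group whose libraries stood apart.

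In the siRNA experiment 60 genes of the wider list were tested. Enzalutamide raised 11 and lowered 21 in siControl cells, where 42.1% of all genes were called (3612 up, 4970 down). With median scaling the counts over all genes became 4334 up and 4257 down, so this balance depends on the scaling. In siGATA2 cells enzalutamide raised 1 and lowered 0, where 0.412% of all genes were called. In siControl cells HMOX1 went from 10.4 ± 1.11 to 33.1 ± 7.63 RPKM (SD, n = 3), a rise of 1.64 ± 0.13 (adjusted p = 5.55e-06), and it stood at 15.1 ± 0.79 and 15.6 ± 0.55 RPKM in siGATA2 cells with vehicle and enzalutamide. LCN2, a siderophore-binding protein gene, rose by 0.95 ± 0.04 (adjusted p = 6.57e-08) in siControl cells and by 0.35 ± 0.04 (adjusted p = 0.00622) in siGATA2 cells, where it was the 1 gene of the list that passed. In siControl cells SLC39A8 fell by 0.72 ± 0.03 (adjusted p = 9.82e-08) and GLRX3, a glutaredoxin of iron-sulfur cluster trafficking, fell by 0.44 ± 0.05 (adjusted p = 6.72e-05). FLVCR2, higher at 10 μM, stood at 1.52 ± 0.125 RPKM with vehicle and 1.55 ± 0.123 RPKM with enzalutamide in these cells. In the ligand experiment LCN2 was at a low level, 0.251 ± 0.075 CPM with vehicle and 0.738 ± 0.040 CPM after 24 h of enzalutamide.

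GATA2 silencing in vehicle-treated cells raised 18 and lowered 26 of the 60 genes, where 55.6% of all genes were called (4928 up, 6394 down), and under enzalutamide it raised 19 and lowered 28, where 54.5% were (5367 up, 5729 down). Of the 19 genes of mitochondrial iron and iron-sulfur clusters, 4 rose and 12 fell with vehicle, and 3 rose and 11 fell with enzalutamide, counts that were not tested as a group. STEAP3 fell from 12.4 ± 0.70 to 4.95 ± 0.05 RPKM with vehicle, a log2 change of -1.31 ± 0.04 (adjusted p = 1.72e-09). LCN2 rose from 18.5 ± 0.97 to 58.1 ± 1.43 RPKM (1.64 ± 0.04, adjusted p = 4.1e-10) and TMPRSS6, a membrane protease of hepcidin control, from 0.776 ± 0.107 to 3.42 ± 0.41 RPKM (2.01 ± 0.12, adjusted p = 1.43e-07). Under enzalutamide the differences of these genes were -1.21 ± 0.04 for STEAP3, 1.05 ± 0.04 for LCN2 and 2.06 ± 0.12 for TMPRSS6.

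Finally, the genes whose levels most resembled a member were ranked by the smaller of 2 Pearson correlations of log2 values, over the 10 ligand libraries and over the 12 siRNA libraries, among 11384 genes. For TFRC these were SMARCC1, a subunit of a chromatin remodelling complex (0.97 and 0.97), USP37, a deubiquitinase (0.97 and 0.97), and NIF3L1 (0.97 and 0.98). For FTH1 they were BEX2 (0.99 and 0.97), BEX4 (0.96 and 0.97) and TRIM16 (0.98 and 0.96). For NCOA4 they were SNX10, a sorting nexin (0.93 and 0.92), SDCBP, the scaffold syntenin (0.92 and 0.96), and NAMPT, an enzyme of NAD synthesis (0.91 and 0.93). The points share their libraries and conditions, and the correlations are descriptions.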

How the data were processed

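The authors aligned the reads of the ligand experiment with TopHat2 2.0 and quantified genes in Partek, on hg19 per the submitters' processing notes, and deposited estimated counts without normalization. For the siRNA experiment the authors deposited values taken here as RPKM, the unit the study names for expression, since they are not whole and step with the gene. The annotation version is not given in the sources used here, and the files pair values with symbols only. Every value column was used, so 0 were set aside. The vehicle table has 4 columns, while 3 carry replicate number 1 with different set names. These 3 differed by a mean chi-square per gene of 1.53 to 1.56, against 3.56 to 3.74 with replicate 2. They were summed to 1 replicate, although the labels list them as separate biological replicates. This measure grows with depth, and the 3 held 59985287 counts together against 38894876 in replicate 2. It therefore does not settle whether they are 1 sample.

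Estimated counts were rounded and tested with edgeR 4.0.16 (quasi-likelihood, TMM factors, default filter on low counts, R 4.3.3), all 10 libraries in one model. The SE given for an edgeR change is its absolute log2 value divided by the square root of the F statistic. It rests on a spread estimated over all 10 libraries. log2(RPKM + 0.1) was tested with limma 3.58.1 (variance trend, genes above 0 in at least 3 libraries), all 12 libraries in one model, so a fold change is on the log2(RPKM + 0.1) scale. A gene was called at a Benjamini-Hochberg adjusted p below 0.05 over all genes tested. Depth is known for the ligand libraries (38894876 to 59985287 counts), and for the RPKM tables no counts were used. DESeq2 1.42.0, other scalings, filters and pseudocounts, a replicate block and leaving out each library were alternatives. The set as a term and the crossed block were chosen after seeing the data. Figures were drawn with matplotlib 3.10.9 in Python 3.11.15.

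The members and gene lists were chosen with earlier results of these data known. Named genes were all 9 members, GATA2, the 2 largest rises and 2 largest falls of the wider iron list per main comparison (adjusted p below 0.05, average level of at least log2 CPM 1 or 1 RPKM) and the 3 genes most like TFRC, FTH1 and NCOA4. BEST1, FTH1P3, CD68, VWF and COL1A1 were named after their values were seen. 1 gene that this rule names and 1 luminal marker are not reported here. P-values measure the spread between these libraries, which are labelled biological replicates. Same-numbered libraries deviated from their group means with correlations of -0.175 to 0.19 in the ligand experiment and -0.342 to 0.28 in the siRNA experiment. In the siRNA experiment all 3 pairs exceeded 0.1 only between siGATA2 and siControl under enzalutamide (0.113, 0.241 and 0.148), a hint from the data and not from the labels. In the ligand experiment DHT at 24 h exceeded 0.1 with vehicle (0.19) and with DHT at 4 h (0.159), as did enzalutamide at 24 h with 4 h (0.115). The main tests used no pairing.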

Additional observations from a re-analysis of the deposited data

Results flagged for a closer look

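Several responses differed between time points or between siRNA groups in a test of the difference itself. From 4 h to 24 h of enzalutamide, the log2 response against the shared vehicle differed by 0.463 for FTH1, 0.252 for FTL, 0.40 for SLC40A1 and -0.686 for TFRC. From 4 h to 24 h of DHT it differed by -0.235 for FTH1, -0.225 for FTL, -0.191 for IREB2, -0.123 for NCOA4, -0.785 for SLC40A1 and 0.526 for TFRC. Between siGATA2 and siControl cells the log2 response to enzalutamide differed by -1.47 for FTH1, -0.573 for FTL, 0.156 for IREB2, -0.146 for SLC11A2 and 0.421 for TFRC. The values for IREB2, for NCOA4 and for SLC40A1 between 4 h and 24 h of enzalutamide lost their call in at least 1 alternative, as given above. The causes were not tested.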

How the results depend on the processing

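Of 117 member results (9 genes in 13 comparisons), 56 were called and 45 of these kept their direction and call in every alternative run. Of the 61 not called, 48 were called in none, and no called result changed sign. The number of members called moved most at 4 h. For enzalutamide against vehicle at 4 h it went from 0 to 1 with separate vehicle columns and to 1 with the set term. For DHT against vehicle at 4 h it went from 0 to 1 with DESeq2, to 1 without the filter, to 2 with separate vehicle columns and to 1 with the set term. For DHT against enzalutamide at 4 h it went from 1 to 0 with DESeq2, RLE factors, the replicate block or the set term, and to 2 with library size alone, without the filter or with the crossed block. The cause was not tested. The replicate block changed the count of members called in no other ligand comparison by over 1.5 times, and in the siRNA experiment it took the IREB2 calls for enzalutamide in siControl cells (adjusted p = 0.0761) and for the interaction (0.0616) and gave SLC40A1 one in siControl cells (0.0429). Over all genes the block left 29 calls of 84 for enzalutamide in siGATA2 cells. Same-numbered vehicle and enzalutamide 4 h libraries were correlated at -0.121 and DHT and enzalutamide 4 h libraries at -0.139, and with those numbers crossed the block called 1308 rises and 1235 falls against vehicle, and 1485 and 1308 for DHT against enzalutamide.

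Leaving out 1 library gave 0 to 2 members called for enzalutamide at 4 h, 4 to 5 at 24 h, 0 to 1 for DHT at 4 h and 4 to 5 at 24 h. It gave 3 to 5 for enzalutamide and 4 to 6 for DHT between 4 h and 24 h, and 0 to 2 at 4 h and 5 to 6 at 24 h between the ligands. It gave 5 to 6 for enzalutamide in siControl cells, 0 to 0 in siGATA2 cells, 9 to 9 for siGATA2 with vehicle, 7 to 9 under enzalutamide and 4 to 5 for the interaction. Where this left 1 library in a group, that library was assumed to vary like the others. Over all genes, the set as a term changed the calls from 2119 to 1224 for enzalutamide at 4 h. It changed them from 3829 to 1628 between 4 h and 24 h of enzalutamide and from 2453 to 1060 between the ligands at 4 h. Leaving out 1 library took these counts as low as 1058 for enzalutamide at 4 h (without vehicle replicate 1), 3098 of 5194 for enzalutamide at 24 h (without its replicate 2), 570 of 1053 for DHT at 4 h (without its replicate 1), 2139 for enzalutamide between 4 h and 24 h, 1256 between the ligands at 4 h and 27 of 84 for enzalutamide in siGATA2 cells. Depth limits TFR2 most, at 31 to 66 counts per library.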
